A study of Mus musculus with 39 samples.

Results

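Mammary tissue of quadruple mice, labelled SB/Tg/K5Cre/Bcat, was compared with mammary tissue of triple Bcat mice, labelled SB/Tg/Bcat, which carry the same named alleles without K5Cre. The arrays were taken by these genotype labels alone: 22 of the series' 39 arrays, from 17 of its 30 animals. Quadruple tissue gave 19 arrays from 15 animals, of which 12 animals gave 1 array, 2 gave 2 and 1 gave 3. Triple Bcat tissue gave 3 arrays from 2 animals: array 1 came from one animal and arrays 2 and 3 from the other. All 22 arrays therefore carry SB, Tg and Bcat, and the comparison asks what differs where K5Cre is added. The labels name the tissue as breast and state no age, strain, sex, tumour stage or dissection, and they do not spell out Tg or Bcat. Animals were read from identifiers in the sample titles, and nothing says how arrays that share an animal were taken from it.

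SB is named in the series title as Sleeping Beauty, a DNA transposon that a transposase cuts out of the genome and inserts elsewhere, which is used in mice to find genes whose disruption drives tumours. Cre is a recombinase that joins DNA at loxP sites, and K5 names the keratin 5 promoter, which is active in basal cells of the epidermis and of the mammary ducts. Mammary epithelium consists of luminal cells, which make milk proteins late in pregnancy and in lactation, and of basal, contractile myoepithelial cells around them, set in fat and connective tissue.

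RNA levels were read as log2 values on Affymetrix arrays, where 1 unit is a 2-fold difference, and 18194 genes were tested with 1 probe set each. A gene was called where limma, fitted over all genes with the animal as a random block, gave a Benjamini-Hochberg adjusted p under 0.05. The median fitted difference over all genes, quadruple minus triple Bcat, was 0.016 log2 units, and 47.5% of genes had a lower fitted level in quadruple tissue. The probe sets for cre on this platform read a spiked control that stood between 13.79 and 14.25 on every array of the series, so they do not check the K5Cre label. Fewer cells of a type and less RNA per cell cannot be told apart in tissue arrays, and the number of arrays, 3 from 2 animals on the triple Bcat side, limits the precision of every value below.

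Arrays of a single animal did not always resemble each other. The animal with 3 quadruple arrays differed by 2-fold or more in 3273 to 3645 genes between its own arrays, while arrays 1 and 12 of another quadruple animal differed so in 53 genes and arrays 18 and 19 of a further animal in 242. Pairs of quadruple arrays from different animals, 166 in all, differed in 411 to 4297 genes, with a median of 2480. Triple Bcat 2 and 3, from the same animal, differed in 440 genes, and triple Bcat 1 differed from them in 2678 and 3221. Quadruple arrays 2, 3 and 8 had the most genes standing 2-fold outside all other 21 arrays, with quadruple 2 at 231 genes above them and quadruple 3 at 221 genes below them. In quadruple 5, Xist, the RNA of the inactive X chromosome in females, stood at 5.72, against 10.77 to 12.86 in the other quadruple arrays. The Y-linked gene Eif2s3y stood between 2.25 and 2.71 in all quadruple arrays, quadruple 5 included. Results that change without these 4 arrays are named beside the values.

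**Figure D1:**
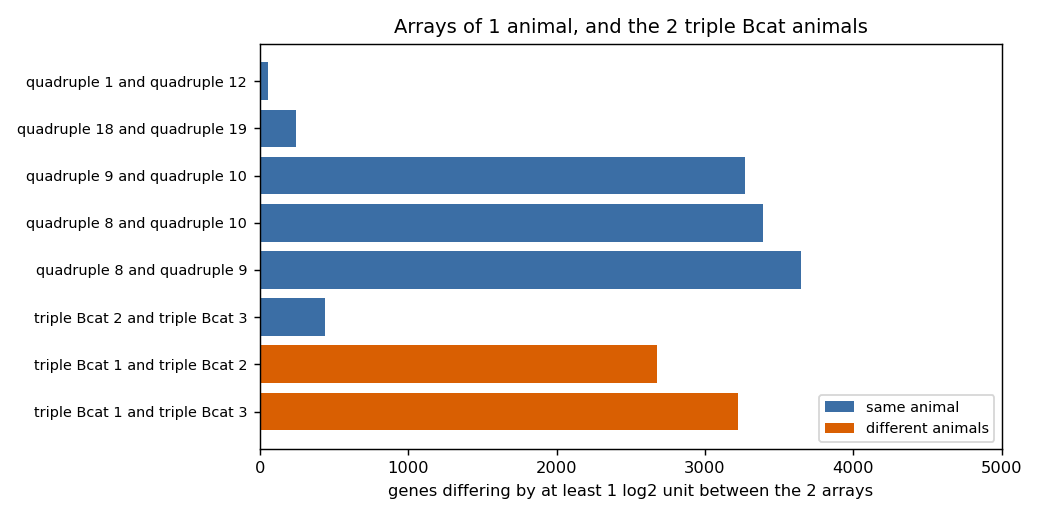
Number of genes (x axis) that differed by 1 log2 unit or more between 2 arrays, for each pair of arrays from a single animal (blue) and for the pairs that join the 2 triple Bcat animals (orange). The bars for quadruple arrays 8, 9 and 10, which share an animal, are longer than those between the 2 triple Bcat animals, while the pair of quadruple 1 and 12 differed in 53 genes.

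Adding K5Cre went with 6 called genes of 18194, or 0.0330% of those tested, and all 6 fell: U90926, Prok2, 1810046K07Rik, Sycp2, Bpifb9b and Lgi3. No gene rose, although 1527 genes (8.39%) had an unadjusted p under 0.05, of which 719 (3.95%) had lower and 808 (4.44%) had higher fitted levels in quadruple tissue. Fitted differences of 1 log2 unit or more were seen in 952 genes (5.23%), 731 of them lower (4.02%) and 221 higher (1.21%), and 5 of these were called. Each of the 6 has a mean level under 5.23 over all arrays, where a value was not separated from background. With genes under that level left out, limma called 0 of 12129 genes, with 1161 at an unadjusted p under 0.05. Without quadruple 5, limma called the same 6 genes, and without quadruple 2, 3 and 8 it called 4 of them and no other. The 3' minus 5' difference of the Gapdh control probe sets, a measure of RNA quality, ran from 0.034 to 1.18 in quadruple arrays and stood at 0.31, 0.79 and 0.56 in triple Bcat 1, 2 and 3. With it as a covariate 9 genes were called, 8 lower and 1 higher in quadruple tissue, the 6 among them.

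Sycp2 encodes a protein of the synaptonemal complex, the structure that joins chromosomes in meiosis. Its 19 quadruple arrays ran from 2.39 to 3.45 with a median of 2.82, while triple Bcat 1, 2 and 3 stood at 4.08, 3.60 and 3.97. The groups did not overlap. Sycp2 fell by 1.07 on the log2 scale (SE 0.15), with a limma adjusted p of 0.000379. Bpifb9b, a member of the family of secreted proteins with the fold of the bactericidal and permeability-increasing protein, ran from 4.11 to 4.87 in quadruple arrays with a median of 4.33, against 5.03, 5.98 and 5.23 in triple Bcat 1, 2 and 3. These groups did not overlap either, and Bpifb9b fell by 1.03 (SE 0.16, adjusted p 0.00175 by limma). On the second Bpifb9b probe set, triple Bcat 1 stood at 2.51, inside the quadruple range of 2.14 to 2.61, with triple Bcat 2 and 3 at 5.50 and 4.29. Sycp2 and Bpifb9b were called in all 15 alternative settings that tested them.

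U90926, a gene known here by its sequence name, ran from 4.58 to 6.49 in quadruple arrays with a median of 4.94, and stood at 7.87, 5.83 and 7.01 in triple Bcat 1, 2 and 3. Of the quadruple arrays, 18 lay below all 3 triple Bcat arrays, the exception being quadruple 17. U90926 fell by 2.00 (SE 0.32, adjusted p 0.00189 by limma). Without triple Bcat 1 its difference was -1.42 with an adjusted p of 0.342, and with the compared groups fitted alone it was -2.01 with 0.0525 by limma. The Riken gene 1810046K07Rik, named because it is 1 of only 6 and after its values were seen, ran from 2.90 to 4.35 in quadruple arrays with a median of 3.22. In triple Bcat 1 it stood at 3.56, within the quadruple range, and in triple Bcat 2 and 3 at 5.63 and 5.03. It fell by 1.33 (SE 0.24, adjusted p 0.0112 by limma), and without the animal of triple Bcat 2 and 3 its difference was -0.27 with an adjusted p of 0.59. Its call was also lost with 1 mean per animal (difference -1.14, adjusted p 0.201 by limma), with the compared groups fitted alone (-1.32, 0.212) and without triple Bcat 2 (-1.01, 0.0933).

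Prok2 encodes prokineticin 2, a small secreted peptide that neutrophils make and that draws myeloid cells and acts on vessels. It ran from 2.67 to 4.41 in quadruple arrays with a median of 3.29, against 5.89, 4.90 and 4.52 in triple Bcat 1, 2 and 3. The groups did not overlap, and Prok2 fell by 1.89 (SE 0.34, adjusted p 0.0132 by limma). Lgi3, a secreted protein with leucine-rich repeats of the LGI family, ran from 3.45 to 4.21 in quadruple arrays with a median of 3.73, against 4.803, 4.65 and 4.52 in triple Bcat 1, 2 and 3. These groups did not overlap, and Lgi3 fell by 0.89 (SE 0.17, adjusted p 0.0161 by limma). Both calls were lost under 3 alternatives. Without triple Bcat 1 the differences were -1.42 for Prok2 and -0.80 for Lgi3 (adjusted p 0.685 and 0.348 by limma). Without quadruple 2, 3 and 8 they were -1.87 and -0.89, close to the values above, with adjusted p of 0.0588 and 0.0729. With all probe sets of a gene averaged they were smaller, -0.70 and -0.51 (adjusted p 0.0738 and 0.0863). Both genes have 2 more probe sets, whose quadruple and triple Bcat values overlapped.

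**Figure D2:**
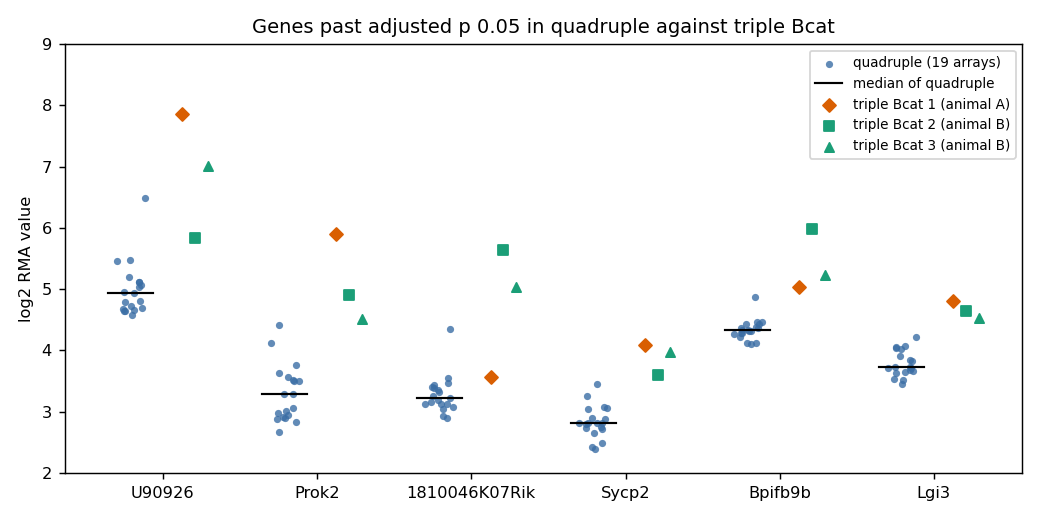
Log2 value (y axis) of the 6 called genes (x axis) in each quadruple array (circles, with a bar at their median) and in triple Bcat 1 (diamond), 2 (square) and 3 (triangle). Sycp2, Bpifb9b, Prok2 and Lgi3 show no overlap, while quadruple 17 lies among the triple Bcat values of U90926 and triple Bcat 1 lies among the quadruple values of 1810046K07Rik.

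In the groups outside this comparison, Prok2 averaged 3.28 in the 8 triple K5Cre arrays (SB/Tg/K5Cre) and 3.07 in the 4 normal gland arrays. It averaged 5.21 in the 2 arrays of masses and 4.85 in the 3 arrays of ventral tumours, both labelled Bcat +/- with neither SB nor K5Cre, the ventral tumours being from a single animal. Normal gland arrays came from mice of the quadruple and both triple genotypes. Lgi3 averaged 3.77 in triple K5Cre and 3.94 in normal gland arrays, against 4.43 in masses and 4.77 in ventral tumours. Over these 4 groups the means of Sycp2 lay between 2.82 and 3.18, those of Bpifb9b between 4.23 and 4.37, those of U90926 between 4.88 and 5.39 and those of 1810046K07Rik between 3.12 and 3.28. The quadruple means of Sycp2, Bpifb9b and 1810046K07Rik were 2.84, 4.34 and 3.28. None of these differences was tested here.

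The promoter of Prok2, 250 bases before to 50 after its start, is shown because it holds a motif of the AP-1 type, TGANTCA on either strand, which 7.81% of 32851 mouse promoters of this length in the RefSeq table of GRCm38.p6 hold. It lies at chr6:99726343-99726642 on the minus strand, with the match in capitals, 67 to 61 bases before the start.
Prok2: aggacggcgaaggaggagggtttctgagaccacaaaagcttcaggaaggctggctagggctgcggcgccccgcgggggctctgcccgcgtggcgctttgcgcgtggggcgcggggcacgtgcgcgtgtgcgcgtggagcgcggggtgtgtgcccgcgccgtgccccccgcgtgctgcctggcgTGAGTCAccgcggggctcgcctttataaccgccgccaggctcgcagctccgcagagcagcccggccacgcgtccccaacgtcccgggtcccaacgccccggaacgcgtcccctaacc
A match is a description of the letters, and no binding was measured. Of the 6 called genes 5 were found in the promoter table, and Prok2 alone held this motif.

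Just outside the threshold, AF067061, read by a cross-hybridising probe set, had the adjusted p nearest to it, 0.0522 by limma with a difference of -0.61. The genes that followed include 2 of blood cells. Mmp8, the collagenase of neutrophil granules, ran from 3.38 to 7.27 in quadruple arrays with a median of 4.63, against 8.16, 7.30 and 8.31 in triple Bcat 1, 2 and 3. The groups did not overlap, though quadruple 17 at 7.27 and triple Bcat 2 at 7.30 nearly met, and the fitted difference was -3.23 (SE 0.67, adjusted p 0.0536 by limma). Nfe2, a transcription factor of erythroid cells, megakaryocytes and other myeloid cells, ran from 3.09 to 5.01 with a median of 3.74, against 5.53, 5.43 and 5.79. Its groups did not overlap, and the fitted difference was -1.70 (SE 0.36, adjusted p 0.0583 by limma). In masses and ventral tumours Mmp8 averaged 8.24 and 8.65, and in triple K5Cre and normal gland arrays 4.47 and 4.09.

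Pcnt, which encodes the centrosome scaffold pericentrin and was chosen after its values were seen, was the nearest gene on the other side. It ran from 7.20 to 8.24 in quadruple arrays with a median of 7.84, against 6.45, 7.20 and 7.16 in triple Bcat 1, 2 and 3. All quadruple arrays lay above, quadruple 10 by a margin too small to show at 2 decimals, and the fitted difference was 0.91 (SE 0.19, adjusted p 0.0532 by limma).

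In 16 genes (0.0879%) all 19 quadruple arrays lay below all 3 triple Bcat arrays, and in 19 (0.104%) all lay above. The 16 include, besides Sycp2, Bpifb9b, Prok2, Lgi3, AF067061, Mmp8 and Nfe2, the myeloid genes Chil3, Ifitm6, Nlrp12 and Pram1, picked out after their values were seen. The rest of the 16 are not named here. Chil3, a chitinase-like protein that macrophages and neutrophils secrete, ran from 2.99 to 7.96 in quadruple arrays, against 8.52, 8.82 and 9.13 in triple Bcat 1, 2 and 3 (difference -3.37, adjusted p 0.488 by limma). Pram1, an adaptor protein of granulocytes, ran from 4.92 to 6.30, against 6.81, 6.34 and 6.93 (difference -1.03, adjusted p 0.0599 by limma). Among the 19 above was Mycn, a Myc-family oncogene that a list of insertion targets held. It ran from 7.12 to 10.77 in quadruple arrays with a median of 7.72, against 6.85, 6.21 and 6.27, and quadruple 14, 18 and 19, the last 2 from 1 animal, held its 3 highest values. Its fitted difference was 1.47 (SE 0.48), with a limma adjusted p of 0.583.

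Genes of neutrophils, the white cells that arrive first at a site of damage, had lower fitted levels in quadruple tissue without any of them passing the test. Of 14 measured members of an 18-gene list, 12 had a lower fitted level in quadruple tissue, 9 of them at an unadjusted p under 0.05, and the list's median difference was -2.56. Over all genes tested, the background for this and every list below, 47.5% had a lower fitted level, 3.95% were lower and 4.44% higher at an unadjusted p under 0.05, and the median difference was 0.016. The list's mean per array ran from 5.37 to 9.23 in quadruple arrays with a median of 7.26, against 10.09, 9.03 and 8.998 in triple Bcat 1, 2 and 3. Quadruple arrays overlapped with triple Bcat 2 and 3 at the upper end, and 15 of 19 lay below all 3. Cxcr2, a receptor for several of the chemokines described next, ran from 5.32 to 8.54 with a median of 5.87. In triple Bcat 1, 2 and 3 it stood at 8.28, 8.28 and 8.50 (difference -1.92, adjusted p 0.48 by limma). Il1r2, the decoy receptor for interleukin 1, ran from 4.42 to 9.503 with a median of 6.65, against 10.25, 9.20 and 9.92 (difference -3.14, adjusted p 0.477 by limma). The abundant granulocyte proteins S100a8 and S100a9 ranged from 5.61 to 14.19 and from 4.46 to 14.23 among quadruple arrays, with medians of 12.49 and 12.45. In triple Bcat 1, 2 and 3 S100a8 stood at 14.37, 14.02 and 13.78 and S100a9 at 14.30, 13.73 and 13.41, within or just above the quadruple range. Cxcr2, S100a8 and S100a9 were picked out after their values were seen. Elane and Ltf, which are made in immature granulocytes, had fitted differences of 0.04 and 0.61.

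A list of CXC chemokines, most of which draw neutrophils, showed the lowest median of the 24 lists described, -3.90 over 7 members. All 7 had a lower fitted level in quadruple tissue, 6 of them at an unadjusted p under 0.05. None passed the adjusted test. Cxcl3 ran from 2.17 to 11.07 in quadruple arrays with a median of 6.25, against 11.14, 10.87 and 10.45 in triple Bcat 1, 2 and 3. Quadruple arrays were spread widely, and 17 of 19 lay below all triple Bcat arrays (difference -4.71, SE 1.647, adjusted p 0.583 by limma).

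Cxcl2 ran from 3.39 to 11.39 with a median of 7.57, against 12.18, 10.50 and 10.74 (difference -3.95, SE 1.37, adjusted p 0.583 by limma). Cxcl5, which epithelial cells make, ran from 2.67 to 11.35 with a median of 7.13, against 10.28, 11.41 and 11.13 (difference -3.92, adjusted p 0.583 by limma). In both genes 17 of 19 quadruple arrays lay below all triple Bcat arrays, and quadruple 11 and 17, from different animals, held the highest Cxcl2 and Cxcl3 values. Ppbp, a platelet chemokine, had the smallest p of the list: it ran from 2.98 to 11.21 with a median of 4.76, against 7.77, 9.95 and 9.58 (difference -3.90, SE 1.07, adjusted p 0.37 by limma). Quadruple 11 alone lay above the triple Bcat arrays for Ppbp.

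Cxcl1 ran from 7.17 to 11.04 with a median of 8.43, against 10.50, 9.72 and 9.88 (difference -1.58, adjusted p 0.583 by limma). Pf4, platelet factor 4, and Cxcl15, a lung-type chemokine, split the triple Bcat animals. Pf4 stood at 7.98 in triple Bcat 1, below the quadruple median of 8.35, and at 10.44 and 11.52 in triple Bcat 2 and 3, above the quadruple maximum of 9.996. Cxcl15 stood at 3.42 in triple Bcat 1 and at 6.48 and 8.21 in triple Bcat 2 and 3, with quadruple arrays between 3.00 and 9.43. Without the animal of triple Bcat 2 and 3, the fitted differences of Pf4 and Cxcl15 were 0.20 and 1.26.

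The promoters of Cxcl2 and Cxcl3 are shown because both genes lie in the chemokine cluster of chromosome 5, had the 2 most negative differences of their list and hold a motif of the NF-kB type, GGNNTTTCC on either strand, in capitals. NF-kB is the transcription factor family best known for switching on inflammatory genes. Cxcl2 lies at chr5:90903649-90903948 and Cxcl3 at chr5:90785851-90786150, both on the plus strand of GRCm38.p6.
Cxcl2: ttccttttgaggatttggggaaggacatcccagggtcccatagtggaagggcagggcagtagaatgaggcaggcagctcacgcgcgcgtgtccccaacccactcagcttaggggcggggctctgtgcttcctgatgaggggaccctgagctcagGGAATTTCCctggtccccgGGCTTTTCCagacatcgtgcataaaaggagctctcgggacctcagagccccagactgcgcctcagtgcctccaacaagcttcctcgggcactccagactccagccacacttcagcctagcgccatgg
Cxcl3: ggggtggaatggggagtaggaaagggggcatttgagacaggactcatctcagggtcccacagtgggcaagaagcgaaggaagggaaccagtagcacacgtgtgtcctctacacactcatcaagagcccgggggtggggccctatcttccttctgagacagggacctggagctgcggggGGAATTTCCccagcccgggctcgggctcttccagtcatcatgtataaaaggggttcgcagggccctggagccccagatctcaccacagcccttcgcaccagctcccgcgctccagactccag
Cxcl2 held 2 matches, starting 96 and 77 bases before the start, and Cxcl3 held 1, starting 72 bases before it. Cxcl1 also held 2, starting at 89 and 70 bases before it, so that 3 of the 6 chemokine genes found in the promoter table held the motif, against 5.82% of all promoters. The 6 milk genes found in that table held none, and of the 5 called genes found there 1, 1810046K07Rik, held the motif. The factor itself was not measured.

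Inflammatory cytokines and the genes they induce had a list median of -1.30 over 17 measured of 20 members, all with a lower fitted level in quadruple tissue and 11 at an unadjusted p under 0.05. Csf3, the growth factor G-CSF that raises neutrophil output, ran from 4.42 to 9.10 in quadruple arrays with a median of 5.25, against 10.08, 7.85 and 8.08 in triple Bcat 1, 2 and 3. The groups overlapped at 2 quadruple arrays (difference -2.90, SE 0.77, adjusted p 0.296 by limma). Osm, oncostatin M, ran from 4.88 to 7.18 with a median of 5.57, against 7.80, 6.33 and 6.40 (difference -1.30, SE 0.35, adjusted p 0.296 by limma). Il1b, interleukin 1 beta, ran from 5.79 to 11.97 with a median of 7.64, against 11.71, 10.09 and 10.40 (difference -2.80, adjusted p 0.583 by limma). Saa3, Ptgs2 (cyclooxygenase 2) and Il6 had differences of -3.15, -2.68 and -2.56, while Tnf, Lif and Lcn2 had -0.42, -0.14 and -0.19. Without the animal of triple Bcat 2 and 3, which leaves triple Bcat 1 alone in its group, the differences of Csf3 and Osm were -4.17 and -2.16.

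**Figure D3:**
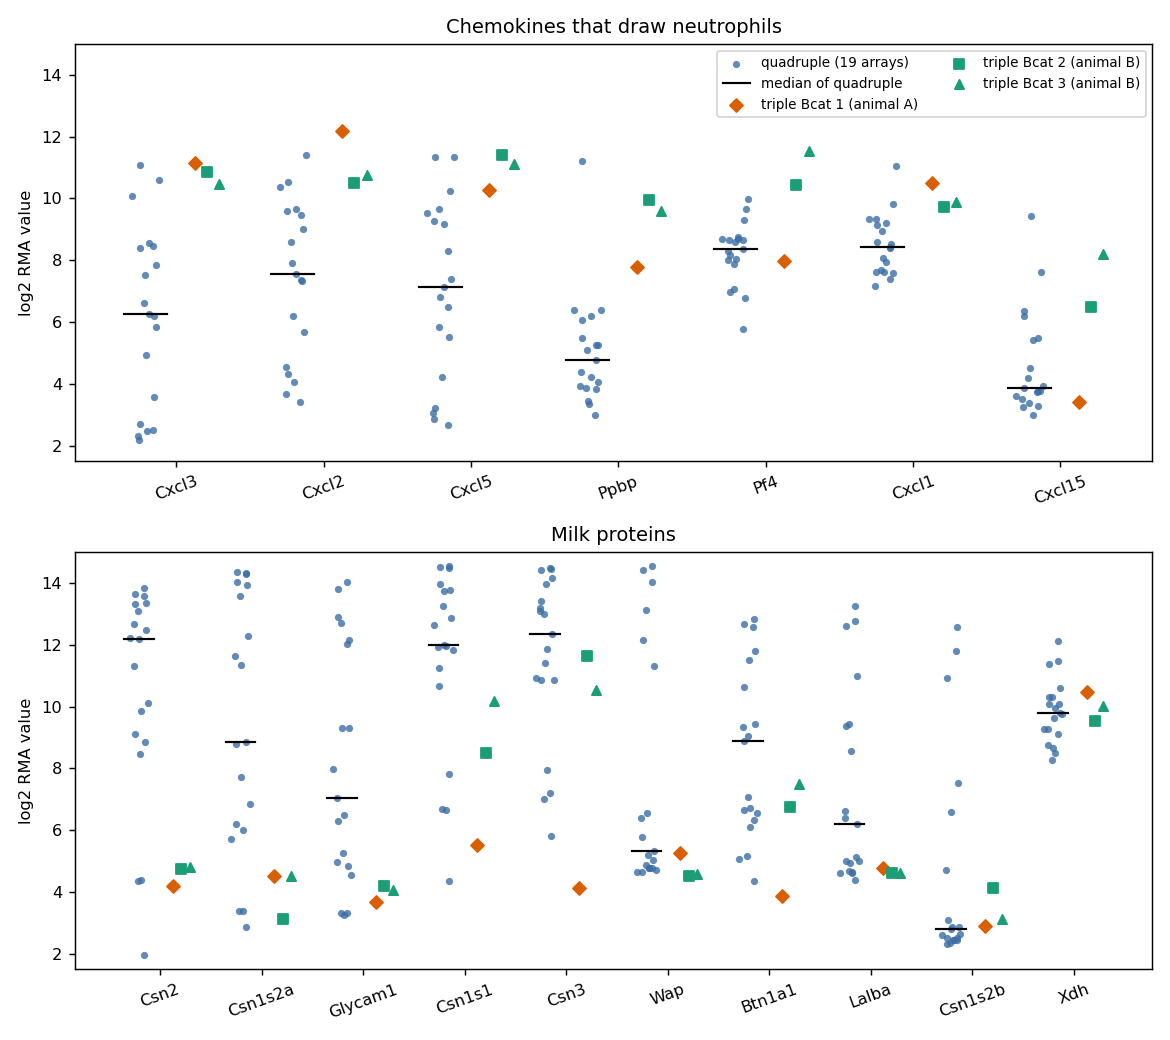
Log2 value (y axis) of each gene of the neutrophil chemokine list (upper panel) and each milk protein gene (lower panel). Circles are quadruple arrays, with a bar at their median, and triple Bcat 1, 2 and 3 are a diamond, square and triangle. Quadruple arrays of Cxcl3 cover 2.17 to 11.07 beside triple Bcat values of 10.45 to 11.14, and those of Csn2 cover 1.97 to 13.85 with 16 of 19 above the triple Bcat values of 4.19 to 4.82.

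Chemokines for monocytes and other leukocytes had a list median of -0.75 over 12 members, all lower in quadruple tissue and 3 at an unadjusted p under 0.05. Ccl4 ran from 5.88 to 9.17 in quadruple arrays with a median of 6.92, against 9.30, 8.05 and 8.61 in triple Bcat 1, 2 and 3 (difference -1.67, adjusted p 0.46 by limma). Ccl3 ran from 3.59 to 8.64 with a median of 5.93, against 10.07, 6.88 and 8.17 (difference -2.56, adjusted p 0.583 by limma). Macrophage genes had a list median of -0.61 over 13 members, with 12 lower and 1 at an unadjusted p under 0.05. That gene, Arg1, the arginase of alternatively activated macrophages, ran from 7.33 to 13.45 with a median of 10.40, against 13.16, 12.62 and 11.99 (difference -2.29, adjusted p 0.583 by limma). The macrophage list mean stood at 9.19 in triple Bcat 1, below the quadruple median of 9.65, and at 10.48 and 11.30 in triple Bcat 2 and 3, and the list's median was 0.69 without the animal of these 2 arrays.

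B cell genes had a list median of -1.19 over 9 measured members, 8 of them lower and 1, Blnk, at an unadjusted p under 0.05. Ms4a1, which encodes the B cell surface protein CD20, ran from 3.33 to 12.15 in quadruple arrays with a median of 3.94, against 4.47, 9.47 and 8.56 in triple Bcat 1, 2 and 3. The highest value belonged to quadruple 2 and the low triple Bcat value to array 1, so both groups held arrays rich and poor in this RNA (difference -2.39, SE 1.19, adjusted p 0.592 by limma). Without the animal of triple Bcat 2 and 3, the list's median was 0.33. Blnk, an adaptor of B cell receptor signalling, ran from 7.33 to 10.96 with a median of 8.90, against 9.99, 10.60 and 10.29 (difference -1.33, adjusted p 0.583 by limma).

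Matrix metalloproteinases, which cut the extracellular matrix, and their inhibitors had a list median of -1.20 over 16 measured of 18 members, 15 lower and 5 at an unadjusted p under 0.05. Mmp3, stromelysin 1, ran from 3.79 to 12.54 in quadruple arrays with a median of 8.94, against 12.02, 11.17 and 12.39 in triple Bcat 1, 2 and 3. All but 1 of the quadruple arrays lay below the triple Bcat arrays, and that one lay above them (difference -3.65, SE 1.27, adjusted p 0.583 by limma). Mmp10, stromelysin 2, ran from 4.08 to 10.87 with a median of 5.62, against 10.38, 7.81 and 8.70 (difference -3.13, adjusted p 0.546 by limma). Mmp7, matrilysin, which glandular epithelia make, stood at 6.35 in triple Bcat 1 and at 12.70 and 11.69 in triple Bcat 2 and 3, with quadruple arrays between 5.25 and 10.19. Mmp13 ran from 4.60 to 13.30 with a median of 8.33, against 12.43, 10.87 and 11.41 (difference -3.10, adjusted p 0.588 by limma). The list's mean lay below all triple Bcat arrays in 18 of 19 quadruple arrays, the exception being quadruple 17 at 9.51. Quadruple 17 also held the highest neutrophil list mean, 9.23, and the part of neutrophils in the metalloproteinase values was not tested.

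Squamous genes, which epidermal cells switch on as they cornify, had a list median of -1.90 over 22 measured of 24 members, all lower in quadruple tissue but only 1 at an unadjusted p under 0.05. The list's mean left a gap among quadruple arrays: 8 stood between 4.91 and 6.97 and 11 between 9.32 and 11.62. Triple Bcat 1, 2 and 3 stood at 11.50, 10.26 and 8.55, so the groups overlapped. Tgm3, the epidermal transglutaminase, ran from 4.74 to 10.92 with a median of 5.61, against 11.64, 7.76 and 5.66 (difference -2.24, SE 1.09, adjusted p 0.588 by limma). Cdsn, corneodesmosin, ran from 5.44 to 10.93 with a median of 7.15, against 11.48, 8.75 and 7.36 (difference -2.01, adjusted p 0.611 by limma). Sprr2f, a cornified envelope precursor chosen after its values were seen, ran from 2.95 to 13.44 with a median of 6.004, against 13.46, 10.86 and 9.75 (difference -4.95, SE 1.98, adjusted p 0.583 by limma). Triple Bcat 1 was the highest of the 3 triple Bcat arrays in all 3 genes. The Tgm3 difference was -5.19 when triple Bcat 1 stood alone for its group.

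Collagens and other fibrillar matrix genes had a list median of -1.20 over 16 measured members, with 15 lower. Col1a1, the main chain of type I collagen, was the only one at an unadjusted p under 0.05: it ran from 6.70 to 11.77 in quadruple arrays with a median of 9.40, against 10.50, 11.16 and 11.58 in triple Bcat 1, 2 and 3 (difference -1.71, adjusted p 0.583 by limma). Fibroblast genes had a median of -0.82 (11 of 11 lower) and endothelial genes -0.72 (12 of 12 lower), with 1 and 2 members at an unadjusted p under 0.05. The fibroblast list mean stood at 8.60 in triple Bcat 1, below the quadruple median of 8.71, and at 9.65 and 10.05 in triple Bcat 2 and 3, and the list's median was 0.0085 without the animal of these 2 arrays. Tie1, a receptor of vessel endothelium, ran from 3.68 to 5.63 with a median of 4.91, against 6.14, 5.55 and 5.50 (difference -0.92, adjusted p 0.583 by limma). Genes of epithelial-mesenchymal transition had a median of -0.54, with 10 of 12 lower and 1, Twist2, at an unadjusted p under 0.05. Twist2, a transcription factor of mesenchyme, ran from 4.90 to 9.54 with a median of 6.04, against 7.69, 7.24 and 7.88, and 18 of 19 quadruple arrays lay below all triple Bcat arrays (difference -1.56, adjusted p 0.583 by limma).

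**Figure D4:**
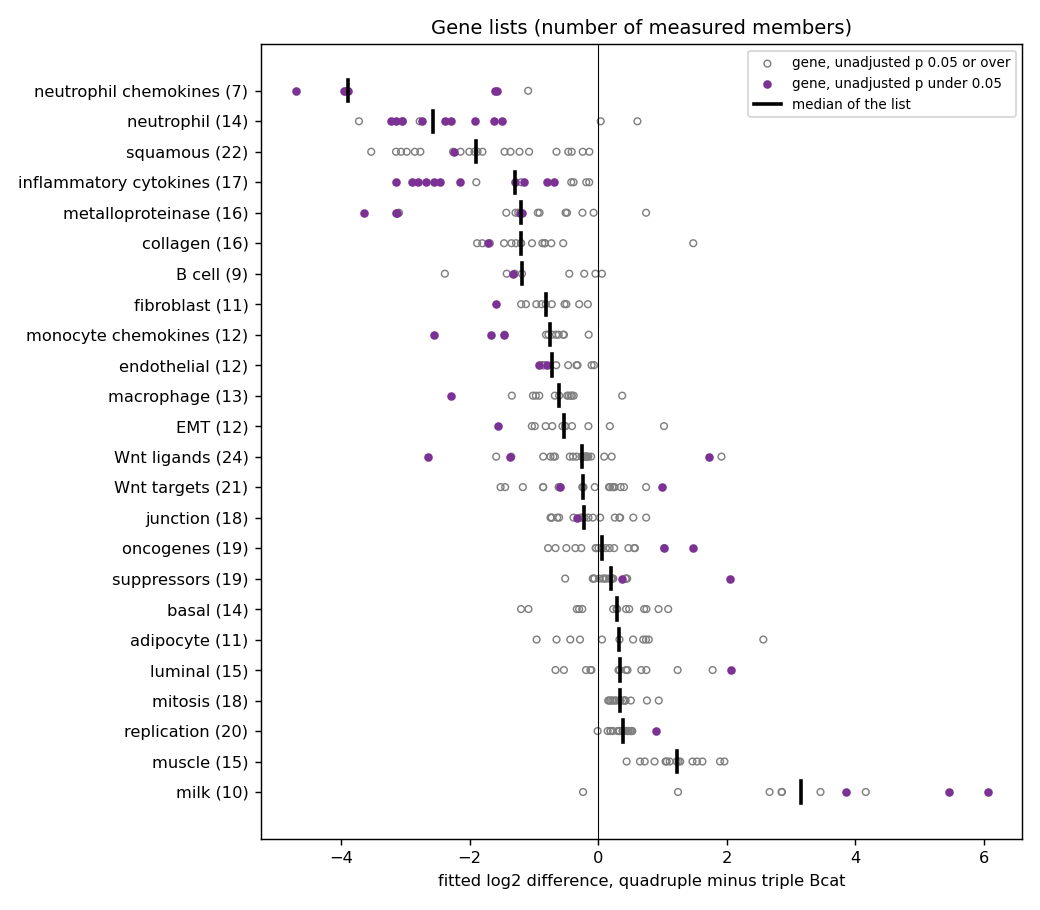
Fitted log2 difference, quadruple minus triple Bcat (x axis), of each measured member of the 24 gene lists described (y axis, with the number of measured members). Filled points have an unadjusted p under 0.05, open points do not, and bars mark list medians. The neutrophil chemokine median is -3.90 and the milk median 3.16, and no point passed the adjusted threshold.

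No gene of any list was called: 0 of 504 measured genes over 38 lists, against 0.0330% of all genes. The members at an unadjusted p under 0.05 are counted with each list described. Ctnnb1, the gene of beta-catenin, which joins cadherins to the cytoskeleton and relays Wnt signals in the nucleus, ran from 12.37 to 13.36 in quadruple arrays with a median of 12.78, against 12.40, 13.16 and 13.14 in triple Bcat 1, 2 and 3. Triple Bcat 1 stood at the bottom of the quadruple range and the other 2 near its top. The difference was 0.03 (SE 0.16, 95% interval -0.30 to 0.35, adjusted p 0.967 by limma). These values are from the brightest of its 3 probe sets. The probe sets disagreed in spread, quadruple arrays covering 12.37 to 13.36 on the brightest and 7.33 to 11.89 on the dimmest. They also disagreed in level. On the dimmest the quadruple median was 9.15, against 11.47, 9.99 and 10.001 in triple Bcat 1, 2 and 3. On the remaining probe set it was 11.26, against 12.29, 11.84 and 11.73. On each of these, 11 quadruple arrays lay below all triple Bcat arrays, while 2 and 4 lay above. With all 3 averaged the difference was -0.53 (SE 0.43, adjusted p 0.708 by limma).

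Direct targets of Wnt signalling, many of which feed back on the pathway, had a list median of -0.23 over 21 measured of 22 members, with 9 higher and 12 lower in quadruple tissue, and of 0.60 without the animal of triple Bcat 2 and 3. Axin2, a feedback inhibitor, ran from 4.99 to 9.49 in quadruple arrays with a median of 8.48, against 7.73, 9.07 and 8.95 in triple Bcat 1, 2 and 3. The groups overlapped (difference -0.59, SE 0.83, adjusted p 0.849 by limma). Lef1, a transcription factor that beta-catenin binds, ran from 4.67 to 7.97 with a median of 5.19, against 5.53, 5.64 and 6.30 (difference -0.23, adjusted p 0.936 by limma). Sox9, a progenitor transcription factor, and Ascl2, an intestinal stem cell factor, had differences of 0.99 and -0.60, with adjusted p of 0.588 and 0.583 by limma. They were the only members at an unadjusted p under 0.05, 1 higher and 1 lower. Ascl2 stood at 5.17 in triple Bcat 1 and at 3.70 and 4.19 in triple Bcat 2 and 3, with quadruple arrays between 3.51 and 4.26.

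Wnt ligands and secreted modulators had a list median of -0.25 over 24 members, with 4 higher and 20 lower, 1 and 2 of them at an unadjusted p under 0.05. Wnt16 ran from 3.49 to 5.69 in quadruple arrays with a median of 4.17, against 5.08, 5.80 and 6.10 in triple Bcat 1, 2 and 3, and 17 of 19 quadruple arrays lay below all 3 (difference -1.37, SE 0.41, adjusted p 0.488 by limma). Dkk2, a secreted inhibitor, ran from 3.25 to 8.31 with a median of 4.68, against 6.66, 8.51 and 8.51 (difference -2.65, SE 1.02, adjusted p 0.583 by limma). Wnt5b, a ligand of noncanonical signalling, was the one member higher at an unadjusted p under 0.05: it ran from 5.09 to 9.02 with a median of 6.32, against 4.04, 5.66 and 5.87 (difference 1.72, adjusted p 0.583 by limma). Junction genes had a median of -0.23 over 18 members, with 6 higher and 12 lower. Tjp1, the tight junction scaffold ZO-1, was the only one at an unadjusted p under 0.05, running from 9.74 to 10.53 with a median of 10.22, against 10.72, 10.59 and 10.23 (difference -0.34, adjusted p 0.588 by limma).

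The keratins that define the basal layer did not pass the test. Krt5, whose promoter drives the added Cre, ran from 9.44 to 12.73 in quadruple arrays with a median of 12.12, against 12.28, 11.98 and 11.58 in triple Bcat 1, 2 and 3. The groups overlapped (difference -0.33, SE 0.86, adjusted p 0.928 by limma). Krt14, its partner, ran from 7.76 to 13.99 with a median of 12.96, against 13.97, 13.10 and 12.32 (difference -1.09, SE 1.13, adjusted p 0.783 by limma). The basal list had a median of 0.29 over 14 measured members, with 9 higher and none at an unadjusted p under 0.05, and of -0.15 without triple Bcat 1. Within it, fitted differences ran from -1.20 to 1.09, the highest being that of the oxytocin receptor Oxtr. The contractile genes Cnn1 and Myh11 had differences of 0.94 and 0.75. These genes were picked out after their values were seen. The list's other contractile genes are not given, so nothing is said of contractile genes as a set. The 5 members with a lower fitted level include the keratins Krt17, Krt14 and Krt5.

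Luminal genes had a list median of 0.33 over 15 measured members, with 10 higher, and its sign turned without triple Bcat 1 (-0.42) and with array weights (-0.72). Krt8 and Krt18, the keratin pair of simple epithelia, had differences of 0.43 (SE 0.69) and 0.67 (SE 0.72), with adjusted p 0.868 and 0.791 by limma, and stood at -0.47 and -0.28 without triple Bcat 1. Epcam, an adhesion protein of epithelial cells, ran from 8.13 in quadruple 8 to 12.88 with a median of 12.12, against 10.08, 11.98 and 11.78 in triple Bcat 1, 2 and 3 (difference 0.75, adjusted p 0.736 by limma). Kit, a receptor of luminal progenitors that mast cells also carry, was the only member at an unadjusted p under 0.05. It ran from 6.40 to 11.85 with a median of 10.32, against 6.38, 8.89 and 9.12, and 14 of 19 quadruple arrays lay above all 3 (difference 2.07, SE 0.77, adjusted p 0.583 by limma). Elf5, the alveolar transcription factor, ran from 3.89 to 13.002 with a median of 9.91, against 8.09, 8.84 and 8.41 (difference 1.78, adjusted p 0.655 by limma). Triple Bcat 1 had the lowest Krt8, Krt18, Epcam and Kit of its group, and the luminal list mean stood at 8.12 there, against 10.29 and 10.03 in triple Bcat 2 and 3.

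Milk protein genes had the highest list median, 3.16 over 10 members, with 9 higher in quadruple tissue, 3 at an unadjusted p under 0.05 and none past the adjusted threshold. Csn2, beta-casein, ran from 1.97 to 13.85 in quadruple arrays with a median of 12.20, against 4.19, 4.76 and 4.82 in triple Bcat 1, 2 and 3. All but 3 quadruple arrays lay above (difference 6.06, SE 2.15, adjusted p 0.583 by limma). Those 3, quadruple 14, 18 and 19, the last 2 from 1 animal, stood at 4.398 or below. Csn1s2a, gamma-casein, ran from 2.86 to 14.38 with a median of 8.86, against 4.51, 3.13 and 4.51 (difference 5.45, SE 2.33, adjusted p 0.583 by limma).

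Csn1s1, alpha-casein, ran from 4.35 to 14.57 with a median of 11.99, against 5.54, 8.49 and 10.18 (difference 3.86, adjusted p 0.583 by limma). Csn3, kappa-casein, split the triple Bcat animals, at 4.14 in array 1 and 11.63 and 10.54 in arrays 2 and 3, with a quadruple median of 12.34. Glycam1, a mucin-like whey component, ran from 3.25 to 14.04 with a median of 7.05, against 3.66, 4.18 and 4.07 (difference 4.16, adjusted p 0.617 by limma). Wap, Lalba, Btn1a1 and Csn1s2b, which encode whey acidic protein, alpha-lactalbumin, butyrophilin and a further casein, had differences of 2.86, 2.66, 2.85 and 1.24. Xdh, xanthine dehydrogenase of the milk fat globule, which other tissues also make, had a difference of -0.24. Csn2 averaged 12.24 in normal gland arrays, 8.31 in triple K5Cre arrays, 6.77 in masses and 7.14 in ventral tumours. Milk genes also varied within normal gland arrays, where Wap ran from 4.84 to 14.55. These groups were not tested here.

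The promoters of Csn2 and Csn1s1, neighbours in the casein cluster of chromosome 5, are shown because both hold a motif of the STAT type, TTCNNNGAA, in capitals. STAT5 is the factor through which prolactin acts on casein genes. Csn2 lies at chr5:87699376-87699675 on the minus strand and Csn1s1 at chr5:87665958-87666257 on the plus strand of GRCm38.p6.
Csn2: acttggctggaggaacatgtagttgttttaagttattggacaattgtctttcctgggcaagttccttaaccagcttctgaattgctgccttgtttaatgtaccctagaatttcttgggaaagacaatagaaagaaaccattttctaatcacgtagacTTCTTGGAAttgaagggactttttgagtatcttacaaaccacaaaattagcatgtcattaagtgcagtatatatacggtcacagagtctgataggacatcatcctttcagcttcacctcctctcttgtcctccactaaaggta
Csn1s1: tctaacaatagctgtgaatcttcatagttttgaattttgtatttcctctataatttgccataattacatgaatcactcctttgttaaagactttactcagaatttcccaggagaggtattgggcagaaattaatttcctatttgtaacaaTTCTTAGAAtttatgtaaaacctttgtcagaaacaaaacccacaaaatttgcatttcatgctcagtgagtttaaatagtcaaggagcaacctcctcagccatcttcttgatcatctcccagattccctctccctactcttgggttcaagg
The match starts 93 bases before the start in Csn2 and 100 bases before it in Csn1s1. Of the 6 milk genes found in the promoter table, 4 held the motif, against 8.3% of all promoters, and none of the 6 chemokine genes did.

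**Figure D5:**
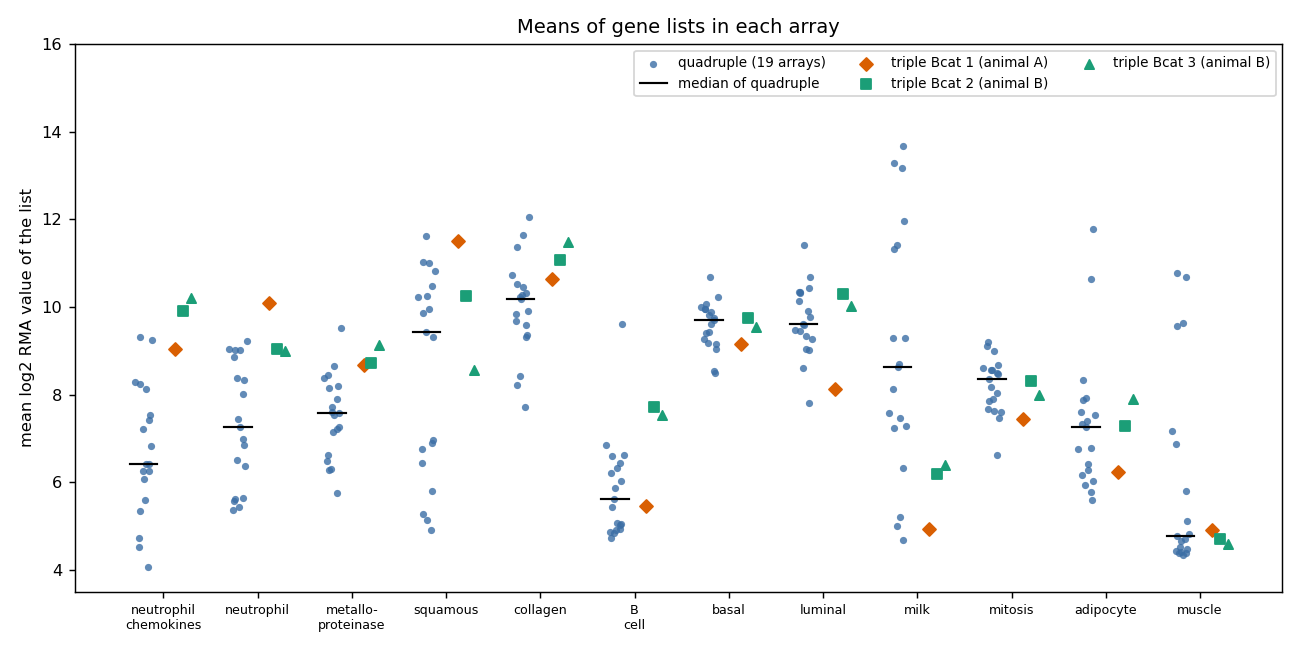
Mean log2 value (y axis) of 12 gene lists (x axis) in each quadruple array (circles, with a bar at their median) and in triple Bcat 1 (diamond), 2 (square) and 3 (triangle). Quadruple arrays span 4.91 to 11.62 for the squamous list and 4.68 to 13.66 for the milk list, and the triple Bcat animals stand apart in the B cell and luminal lists.

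No gene of cell division passed the test. All 18 measured mitosis genes had a higher fitted level in quadruple tissue, with a median of 0.34 and none at an unadjusted p under 0.05. Mki67, the proliferation antigen Ki-67, ran from 8.96 to 11.10 in quadruple arrays with a median of 10.36, against 9.18, 10.56 and 10.13 in triple Bcat 1, 2 and 3 (difference 0.41, SE 0.41, adjusted p 0.771 by limma). Without triple Bcat 1 its difference was -0.06. Replication genes had a median of 0.38, with 19 of 20 measured members higher and 1 lower. Mcm6, a subunit of the replicative helicase, was the only one at an unadjusted p under 0.05, running from 8.77 to 11.08 with a median of 10.05, against 8.55, 9.47 and 9.39 (difference 0.89, adjusted p 0.583 by limma).

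Oncogenes known as insertion targets in mouse mammary tumours had a median of 0.06 over 19 measured members, with 12 higher and 2, Mycn and Tert, at an unadjusted p under 0.05. Tert, the catalytic subunit of telomerase, ran from 3.99 to 5.85 in quadruple arrays with a median of 5.05, against 3.30, 4.33 and 4.22 in triple Bcat 1, 2 and 3 (difference 1.02, adjusted p 0.583 by limma). Tumour suppressors prone to insertional loss had a median of 0.20 over 19 measured members, with 15 higher, and of -0.11 with array weights, and it was also below 0 without triple Bcat 1. At an unadjusted p under 0.05, 2 members were higher, Trps1 and Arid1a, the latter by 0.37 (adjusted p 0.587 by limma). Trps1, a zinc-finger repressor of luminal cells, ran from 7.40 to 11.52 with a median of 10.62, against 6.87, 9.57 and 8.74, and 15 of 19 quadruple arrays lay above all 3 (difference 2.05, SE 0.65, adjusted p 0.546 by limma). With triple Bcat 1 alone for its group, the Trps1 difference was 3.40.

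Adipocyte genes had a median of 0.33 over 11 measured members, with 7 higher and none at an unadjusted p under 0.05, and of -0.14 without triple Bcat 1. Adipoq, the fat hormone adiponectin, ran from 2.47 to 13.46 in quadruple arrays with a median of 7.55, against 2.56, 8.28 and 9.25 in triple Bcat 1, 2 and 3 (difference 0.79, SE 1.94, adjusted p 0.924 by limma). Both groups held arrays with much and with little fat RNA, and without triple Bcat 1 the difference was -1.69. With the adipocyte list mean as a covariate, limma called 7 genes, all 6 called genes among them. Skeletal muscle genes had a median of 1.22, all 15 being higher, with none at an unadjusted p under 0.05. The muscle list mean had a quadruple median of 4.77, beside 4.92, 4.70 and 4.59 in triple Bcat 1, 2 and 3. Quadruple 1, 5, 9 and 12, of which 1 and 12 share an animal, stood between 9.57 and 10.78.

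Among single arrays, quadruple 3 and 8 stood 2-fold above all other arrays of the comparison in 126 and 196 genes and 2-fold below them in 221 and 171. Triple Bcat 1 stood apart in fewer, with 98 genes 2-fold above and 31 genes 2-fold below all other arrays. Apol11b, an apolipoprotein L gene chosen after its values were seen, stood at 7.80 there and at 3.44 and 3.39 in triple Bcat 2 and 3, with quadruple arrays between 2.77 and 3.66 (difference -2.03, adjusted p 0.0599 by limma). Il17a, the cytokine of T helper 17 cells, stood at 7.35, 3.39 and 3.73, with quadruple arrays between 3.10 and 4.88 (difference -1.59, adjusted p 0.296 by limma). Irx1, a homeobox gene, showed the opposite, at 4.69 in triple Bcat 1 and 9.74 and 9.09 in triple Bcat 2 and 3, with quadruple arrays between 7.87 and 11.81. Cyp11a1, the enzyme that starts steroid synthesis, stood at 5.88, 4.22 and 3.69, with quadruple arrays between 3.00 and 3.86 (difference -1.16, adjusted p 0.0532 by limma). These genes were picked out after their values were seen. Without triple Bcat 1 limma called 10 genes, of which 3 are among the 6 called genes: Sycp2, Bpifb9b and 1810046K07Rik.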

How the data were processed

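Mouse total RNA was biotin-labelled for Affymetrix arrays from 100 ng, per the labels' protocols. What was deposited is a table of log2 values for 45101 probe sets on 39 arrays, made by the authors with RMA per the submitters' processing notes (version not given in the sources used here). RMA subtracts background, brings all arrays to a common distribution and combines the probes of a set, so differences in overall brightness are removed and low values are compressed. The log2 values ran from 1.65 to 14.61 and array medians from 5.10 to 5.27. Detection calls were not analysed, and 0 columns were left unused.

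Gene names came from the platform annotation, updated through RefSeq tables of GRCm38.p6: 34958 probe sets had 1 gene, 932 had several and stayed unnamed, and 9211 had none. A gene's level was that of its probe set with the highest mean, for 18194 genes, and cross-hybridising probe sets served only the 100 genes that had no other.

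Groups followed the genotype labels. A limma model with a mean for each of the 6 groups was fitted to all 39 arrays, with animals as a random block (consensus correlation 0.329) and an intensity trend in eBayes, and calls were made at a Benjamini-Hochberg adjusted p under 0.05. Arrays of an animal are weighed together, so a fitted difference need not equal the difference of 2 printed means. P-values rest on an error variance per gene that is pooled over the 6 groups and 39 arrays, and on the consensus correlation above. They therefore hardly reflect the spread between the 2 triple Bcat animals. With the compared groups fitted alone, the calls of U90926 and 1810046K07Rik were lost. The procedure was checked on simulated data with known changes before use.

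Genes always named were Adipoq, Axin2, Ctnnb1, Epcam, Krt14, Krt18, Krt5, Krt8, Lef1 and Mki67. To these were added up to 12 called genes per direction with a symbol other than a clone, Riken, Gm or LOC name, and, for each described list, its called members or else the 2 with the smallest p. Other list members, genes just outside the threshold and genes in which an array stands apart were chosen after their values were seen. The groups, the comparison and the lists were chosen with earlier results of these data known. The software was R 4.3.3 with limma 3.58.1, and Python 3.11.15 with pandas 2.3.3, numpy 2.4.6 and matplotlib 3.10.9. The fit was repeated under 16 alternatives. Of these, 3 were added after seeing the data: without quadruple 5, without quadruple 2, 3 and 8, and with the difference between 3' and 5' Gapdh probe sets as a covariate.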

Additional observations from a re-analysis of the deposited data

How the results depend on the processing

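The count of called genes, 6 as reported, was 14 without the animal block, 0 without the lowest genes by mean level, 2557 with array weights, which were 0.263, 8.24 and 1.29 for triple Bcat 1, 2 and 3, and 762 without the animal of triple Bcat 2 and 3. Leaving out triple Bcat 1, 2 or 3 gave 10, 15 and 11 genes, and the alternatives not named here gave 4 to 9. Some single genes changed sign, none of them called on either side. Ctnnb1 stood at -0.031 without the block, -0.042 after cyclic loess and -0.53 with probe sets averaged. With array weights Ctnnb1 stood at -0.18, Krt5 at 0.049, Krt8 at -0.89, Krt18 at -0.59, Mki67 at -0.13, Adipoq at -1.39, Ascl2 at 0.028, Cenpe at -0.024 and Csn1s2b at -0.21. With each triple Bcat array left out in turn, Ctnnb1 ran from -0.27 to 0.11, Krt8 from -0.47 to 0.78, Krt18 from -0.28 to 0.98, Mki67 from -0.056 to 0.63, Adipoq from -1.69 to 1.65 and Xdh from -0.42 to 0.036. The value of the other sign came without triple Bcat 1 in each. Without the animal of triple Bcat 2 and 3, Axin2 stood at 0.19, Lef1 at 0.034, Msr1 at 0.023, Ms4a1 at 0.33, Cxcl15 at 1.26, Pf4 at 0.20 and Xist at 0.44. Without quadruple 5, Xist stood at 0.24. The causes were not tested. Medians of the B cell, macrophage, fibroblast, Wnt target, basal, luminal, adipocyte and suppressor lists changed sign under at least 1 alternative. The other 16 described lists kept their sign under all of them, the neutrophil chemokine median lying between -3.90 and -2.70 and the milk median between 2.14 and 4.60. No paired analysis was possible because replicate numbers follow the order of the samples and pair nothing. Signal over background was not used here, so low values carry an unknown share of it.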

Other observations

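Among the 14 gene lists not described in the report, 141 measured members gave 5 genes lower and 1 higher at an unadjusted p under 0.05, and list medians lay between -1.26 and 0.41. Over all genes tested, 3.95% were lower and 4.44% higher at that p. The genes named below come from lists of which no member reached it. The EGF-type growth factors Ereg, Epgn, Hbegf and Tgfa had fitted differences of -2.28, -2.10, -1.77 and -1.06, while the receptors Egfr, Erbb2, Erbb3 and Erbb4 had -0.39, -0.08, -0.19 and -0.10. Their list had a median of -0.26, with 10 members lower and 2 higher. The hair follicle genes Krt25 and Tchh had -2.67 and -2.58, in a list with a median of -0.42, 10 members lower and 3 higher. The T cell genes Cd3e, Cd4 and Cd8a had -0.02, -0.12 and 0.11. Dusp4 and Etv5, feedback genes of ERK signalling, had 1.07 and 0.99, in a list with a median of 0.16, 9 members higher and 4 lower. The carbonic anhydrase Car9 and adrenomedullin (Adm), which respond to low oxygen, had -1.27 and -1.37, and the hypoxia list mean of triple Bcat 1, 10.90, lay above all quadruple arrays, the highest of which stood at 10.87. None of these genes passed the adjusted threshold, and they were picked out after their values were seen.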
